A study of Paralichthys olivaceus with 24 samples.

Results

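Skeletal muscle of olive flounder (Paralichthys olivaceus), a flatfish of the north-west Pacific, was compared between fish brought to 18 °C and fish kept at 12 °C, the temperature to which all fish had first been acclimated. The members are the genes whose mean over this pair of libraries was at least 1 RPKM (a read number corrected for transcript length and library depth). There were 4097 such genes among the 11646 in the table, or 35.2%, of which 2801 carry a gene symbol and 1296 are known by a numbered ID alone. The fish were 9 months old and were held in groups of 15. Per the labels' protocols, 1 heating regime moved fish between tanks of rising temperature every 3 h, and the other warmed the water by 3 °C per h and then held it for at least 20 h. Sample names carry the letter A or C and both libraries here carry the letter C, but no label says which regime that letter stands for. Duplicates are mentioned, yet each temperature has 1 column, so each temperature is 1 library here, no value has a replicate and no difference has a test. Libraries of the same letter at 23 and 28 °C are quoted as further values of a gene. A fold that set them against 12 °C would share the 12 °C library, and none is given.

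Skeletal muscle of fish is mostly fast fibres packed with actin, myosin and calcium pumps. It is also the main store of protein, which ubiquitin ligases and the proteasome break down when growth stops. Plasma proteins such as apolipoproteins, transferrin, fibrinogen and clotting factors are made in the liver, and digestive proteases such as trypsin in the exocrine pancreas, which in many bony fish lies scattered beside or inside the liver. A bulk RNA sample of muscle measures whatever tissue was cut out with it.

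The muscle identity of both libraries was plain in the levels. Parvalbumin (pvalb1), a calcium buffer of fast fibres, was at 5153 RPKM at 18 °C against 6441 RPKM at 12 °C. The calcium pump atp2a1l was at 15287 RPKM at 18 °C against 15859 RPKM at 12 °C. The list of 29 fast contractile genes summed to 22043 RPKM at 18 °C against 23489 RPKM at 12 °C once mylpf, a regulatory light chain of fast myosin, was left out. That gene was listed at 0 at 18 °C and at 25770 RPKM at 12 °C, with 25861 and 20633 RPKM in the 23 and 28 °C libraries. Without counts, a 0 may mean that the estimate failed, and so no fold is given for mylpf, which alone made up 20.6% of the summed RPKM of the table at 12 °C. The list also held pvalb1 and atp2a1l, which made up most of its sums at 18 and 12 °C. Those sums therefore largely repeat the values of pvalb1 and atp2a1l. At 23 °C atp2a1l was listed at 0.

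In the 18 °C library 314 genes (7.66%) were at least 2-fold higher than in the 12 °C library, and 110 genes (2.68%) were at least 2-fold lower. Folds are on the scale log2(RPKM + 1), 18 °C over 12 °C, which understates the difference of low genes. The higher side also reached much further. Of the members, 123 were higher by a log2 fold of 3 or more and 2 were lower by as much, 1 of these being mylpf with its uncertain 0. The median over all members was -0.11 on the log2 scale, the middle 50% of members lay between -0.41 and 0.20, and 3019 members (73.7%) were within 1.5-fold. Of the 314 higher genes, 199 were below 1 RPKM at 12 °C and 17 were listed at 0 there. Of the 110 lower genes, 20 were below 1 RPKM at 18 °C and 5, mylpf among them, were listed at 0 there. Symbols were available for 173 of the higher and 52 of the lower genes.

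**Figure D1:**
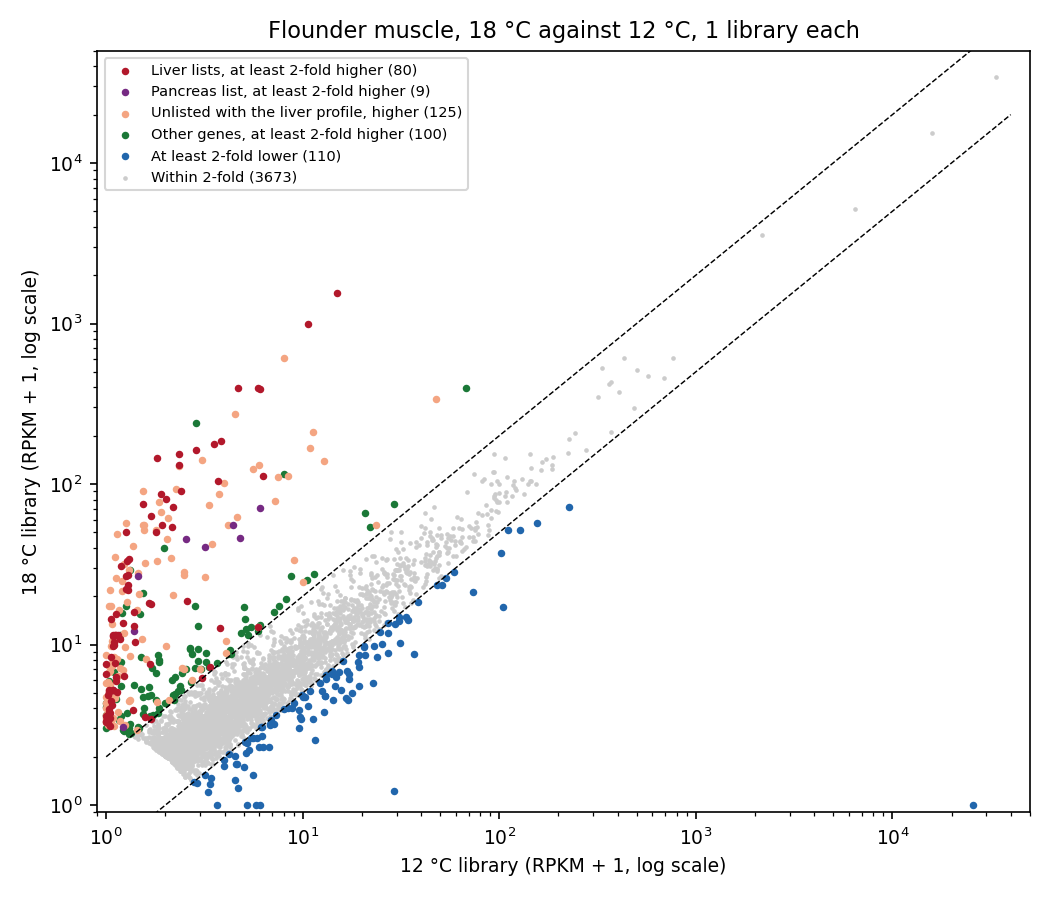
Each of the 4097 genes is 1 point, with RPKM + 1 in the 12 °C library on the x axis and in the 18 °C library on the y axis (both log scales), and the dashed lines mark 2-fold. Most of the points furthest above the upper line are among the 89 higher genes of the liver and pancreas lists (80 and 9) and the 125 unlisted genes with their profile. Of the other 100 higher genes most lie near that line, and 9 have a log2 fold of 3 or more. The 110 lower genes run along the lower line, with mylpf at the far right.

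Among the genes with a symbol, plasma protein genes had the largest positive folds. Some genes without a symbol lay between them, such as LOC109638865 (log2 fold 6.24). The lipid carrier gene apoa4, an apolipoprotein, was at 1544 RPKM at 18 °C against 14.0 RPKM at 12 °C (log2 fold 6.69). A further apolipoprotein, apoa2, was at 991 RPKM at 18 °C against 9.67 RPKM at 12 °C (6.54). A fetuin gene, ahsg1, whose product is a mineral-binding plasma protein, was at 395 RPKM at 18 °C against 3.70 RPKM at 12 °C (6.40). By the same measure hpxa (hemopexin, which binds free heme), tfa (transferrin, which carries iron), fgg (a fibrinogen chain), apoc1, ambp (the precursor of alpha-1-microglobulin and bikunin), ahsg2 and hpxb followed, with log2 folds between 6.33 and 5.65. All 10 were between 11.5 and 134 RPKM at 28 °C and between 1.11 and 18.3 RPKM at 23 °C, so the 18 °C library stood above all the others for each of them.

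Most of the plasma protein list behaved in this way. Of its 70 rows 63 met the minimum, 56 of them higher by 2-fold or more and 2 lower. Only 24 of the 70 rows were at 1 RPKM or more at 12 °C, and a row that met the minimum through the 18 °C library alone had to be higher. Over all 70 rows the median log2 fold was 3.38, against 0.00 over all rows of the table. The summed level of the list was 5850 RPKM at 18 °C against 171 RPKM at 12 °C.

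The proteins of blood clotting, taken from the plasma and enzyme lists, made up 22 rows of coagulation factors and their inhibitors. All 22 met the minimum and 21 were at least 2-fold higher, with a median log2 fold of 3.42. Only 6 of the 22 were at 1 RPKM or more at 12 °C, so most met the minimum through the 18 °C library. The exception was proza, a protein Z gene of the enzyme list, at 12.4 RPKM at 18 °C against 13.6 RPKM at 12 °C. Prothrombin (f2), the precursor of thrombin, was at 49.2 RPKM at 18 °C against 0.267 RPKM at 12 °C. The kininogen gene kng1 was at 85.9 RPKM at 18 °C against 0.902 RPKM at 12 °C. Antithrombin (serpinc1), which inhibits thrombin, was at 53.3 RPKM at 18 °C against 1.17 RPKM at 12 °C. Genes that promote clotting and genes that restrain it were thus on the same side.

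Lipoprotein genes and the lipases that act on them were higher in 10 of 13 rows, 4 of the 13 being at 1 RPKM or more at 12 °C. Lecithin-cholesterol acyltransferase (lcat), which esterifies cholesterol on lipoproteins, was at 4.19 RPKM at 18 °C against 0.0342 RPKM at 12 °C. Among the other 3 rows, angptl4, a lipase inhibitor of several tissues, was at 5.15 RPKM at 18 °C against 5.60 RPKM at 12 °C. Carrier proteins were higher in 11 of 14 rows, 5 of the 14 being at 1 RPKM or more at 12 °C. The vitamin A carrier rbp4 was at 103 RPKM at 18 °C against 2.69 RPKM at 12 °C. All 4 rows of the inter-alpha-trypsin inhibitor family, which in mammals stabilises hyaluronan, were higher, with a median log2 fold of 5.18.

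Complement, the lytic cascade of plasma, was higher in most rows, with a median log2 fold of 3.18. Of 15 rows, 9 were higher and 1 was lower, and 4 of the 15 were at 1 RPKM or more at 12 °C. The pore-forming component c9 was at 22.5 RPKM at 18 °C against 0.294 RPKM at 12 °C, and the complement inhibitor serping1 was at 62.6 RPKM at 18 °C against 0.693 RPKM at 12 °C. Component c6, which sits in the same pore, was at 8.81 RPKM at 18 °C against 22.1 RPKM at 12 °C. The iron-regulatory peptide gene hamp (hepcidin) was on the same side, at 5.09 RPKM at 18 °C against 16.2 RPKM at 12 °C. Another antimicrobial peptide gene, leap2, was at 17.7 RPKM at 18 °C against 1.56 RPKM at 12 °C, but it was highest at 28 °C, at 58.7 RPKM. The wider acute phase and complement list, most of which overlaps the plasma list, had 17 higher and 3 lower genes among 26 rows, and the third lower gene was the transcription factor cebpb at 3.73 RPKM at 18 °C against 9.03 RPKM at 12 °C.

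**Figure D2:**
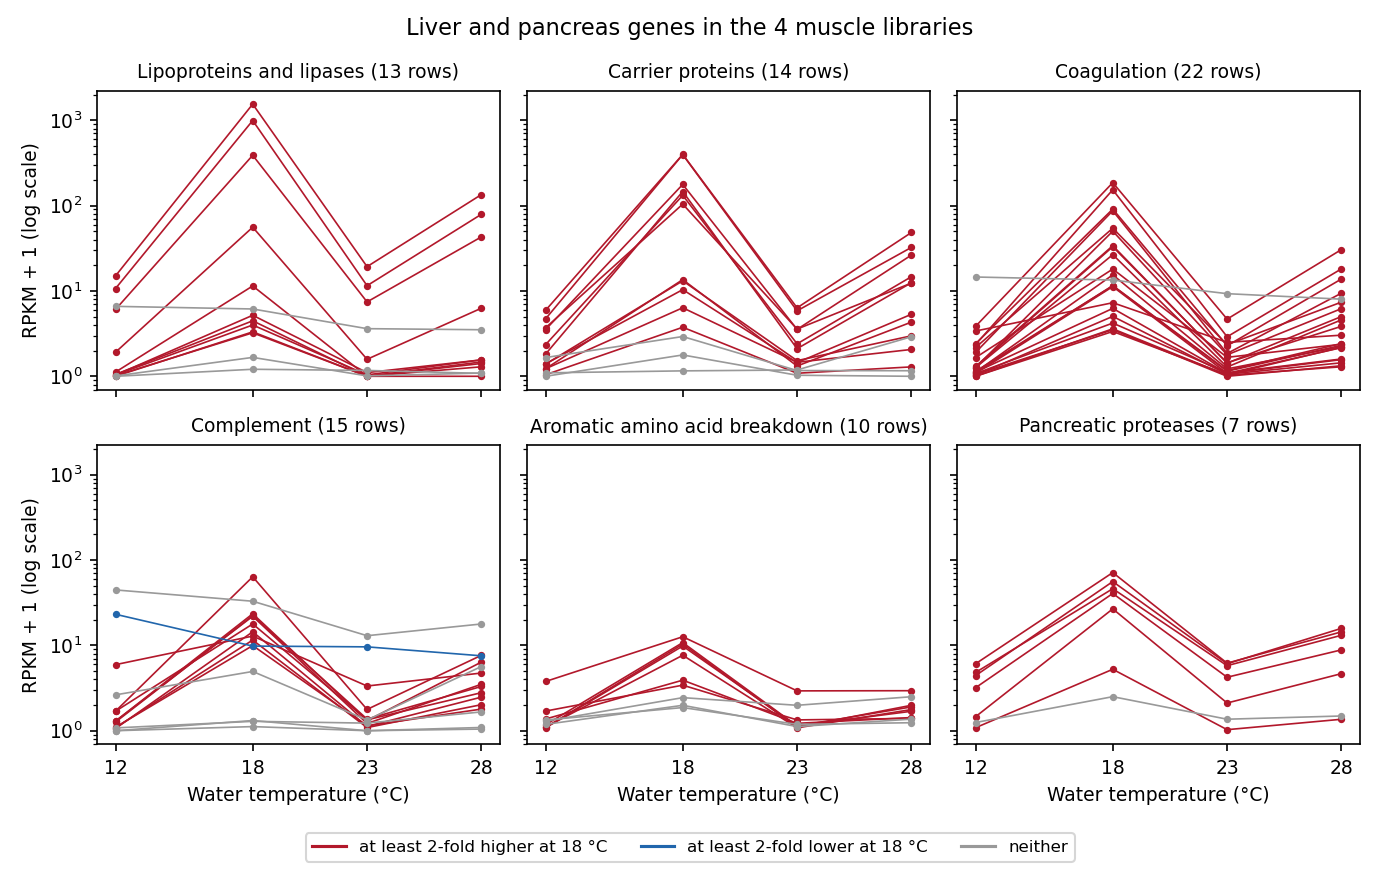
Each line is 1 gene of a named role across the 12, 18, 23 and 28 °C libraries (x axis, °C), with RPKM + 1 on a log y axis, coloured by whether it was at least 2-fold higher or lower at 18 °C. In all 6 panels most lines peak at 18 °C, are near the 12 °C level at 23 °C and stand between them at 28 °C. The blue complement line is c6.

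Enzymes of the liver list were higher in 24 of 68 rows and lower in 0, with 38 rows meeting the minimum. The median log2 fold over all 68 was 0.73. Of the 68 rows 16 were at 1 RPKM or more at 12 °C. Rows that met the minimum through the 18 °C library alone had to be higher there. The furthest was thrsp, a lipid-synthesis protein, at 73.7 RPKM at 18 °C against 0.540 RPKM at 12 °C. The liver fatty acid-binding protein fabp10a was at 29.9 RPKM at 18 °C against 0.187 RPKM at 12 °C. The urate oxidase gene uox was at 15.1 RPKM at 18 °C against 0.386 RPKM at 12 °C.

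The breakdown of aromatic amino acids was covered nearly step by step. Of 10 rows 7 were higher, 0 were lower and 10 had a fold above 0, though only 1 was at 1 RPKM or more at 12 °C. Phenylalanine hydroxylase (pah), which makes tyrosine, was at 9.77 RPKM at 18 °C against 0.175 RPKM at 12 °C. Tyrosine aminotransferase (tat), the next step, was at 8.82 RPKM at 18 °C against 0.0814 RPKM at 12 °C, and tryptophan dioxygenase (tdo2) was at 9.34 RPKM at 18 °C against 0.0937 RPKM at 12 °C. The later tyrosine enzymes hpda and hgd were at 6.66 and 11.6 RPKM at 18 °C, against 0.102 and 2.77 RPKM at 12 °C. Enzymes of other amino acids shared this course only in part. Of their 16 rows 5 were higher, 0 were lower and 10 had a fold above 0, with a median log2 fold of 0.70. Their sum was 169 RPKM at 18 °C against 186 RPKM at 12 °C, and it was highest at 28 °C, at 473 RPKM. Among glucose genes, 4 of 10 rows were higher, including the gluconeogenic enzyme fbp1b and the liver glucose transporter slc2a2, which was at 2.80 RPKM at 18 °C against 0.0364 RPKM at 12 °C.

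Exocrine pancreas genes were higher in 9 of 15 rows and lower in 0, with 9 rows meeting the minimum. The median log2 fold over all 15 was 2.27. Only 5 of the 15 rows were at 1 RPKM or more at 12 °C, so some met the minimum through the 18 °C library alone. The trypsin gene prss1 was at 25.8 RPKM at 18 °C against 0.458 RPKM at 12 °C (log2 fold 4.20). The protease inhibitor gene spink4 was at 44.2 RPKM at 18 °C against 1.56 RPKM at 12 °C (4.14). The carboxypeptidase genes cpa4 and cpb1 were at 39.6 and 54.9 RPKM at 18 °C, against 2.19 and 3.42 RPKM at 12 °C. Of the 7 protease rows of this list 6 were higher. One of them, cpb2, was matched by symbol and need not be a digestive enzyme. It was at 4.25 RPKM at 18 °C against 0.0847 RPKM at 12 °C, and its log2 fold of 2.27 is the list's median.

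Genes that regulate these tissues were present at trace levels. The 7 rows of liver transcription factors and nuclear receptors, such as hnf4a and foxa3, summed to 2.88 RPKM at 18 °C against 0.0912 RPKM at 12 °C. None met the minimum, all 7 had a fold above 0, and 5 were listed at 0 at 12 °C. The 4 rows of acinar cell regulators summed to 0.287 RPKM at 18 °C against 0.0777 RPKM at 12 °C. Egg yolk and egg coat genes had 3 rows, with a summed level of 0.623 RPKM at 18 °C against 0.326 RPKM at 12 °C.

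Taking the liver, acute phase, yolk and pancreas lists as 1 set gave 160 rows. They summed to 6685 RPKM at 18 °C, which was 6.33% of the table, against 433 RPKM or 0.345% at 12 °C. At 23 °C the sum was 442 RPKM (0.472%) and at 28 °C it was 1308 RPKM (0.975%). These percentages have unlike bases. The whole table summed to 125278 RPKM at 12 °C, or 99508 RPKM without mylpf, against 105568 RPKM at 18 °C, where mylpf was listed at 0. Of the 112 that met the minimum, 89 were higher and 3 lower. Only 47 of the 160 rows were at 1 RPKM or more at 12 °C, so many met the minimum through the 18 °C library. The share that tissue other than muscle had in these levels was not tested. In bulk samples, more cells of a type and more RNA per cell cannot be told apart. Without these lists 225 of 3985 genes (5.65%) were higher by 2-fold or more and 107 (2.69%) lower by as much.

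The level at 28 °C relative to 18 °C was low for most genes of these lists. The genes were taken at 5 RPKM or more at 18 °C, and since that level is also the divisor, genes picked for being high there tend to a low ratio, so it is a description only. The ratio had a median of 0.113 for 52 plasma protein genes, with the middle 50% between 0.0963 and 0.171 and the highest at 3.32. For 21 liver enzymes the median was 0.130, with the middle 50% between 0.106 and 0.301 and the highest at 7.64. The 7 pancreas genes lay between 0.139 and 0.270, with a median of 0.199. Over all 1393 members at that level the median was 0.517, with the middle 50% between 0.301 and 1.38. A ratio from 0.05 to 0.2 was found for 40 of the 52 plasma protein genes, 14 of the 21 enzymes and 4 of the 7 pancreas genes, and for 216 of the 1393 (15.5%).

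**Figure D3:**
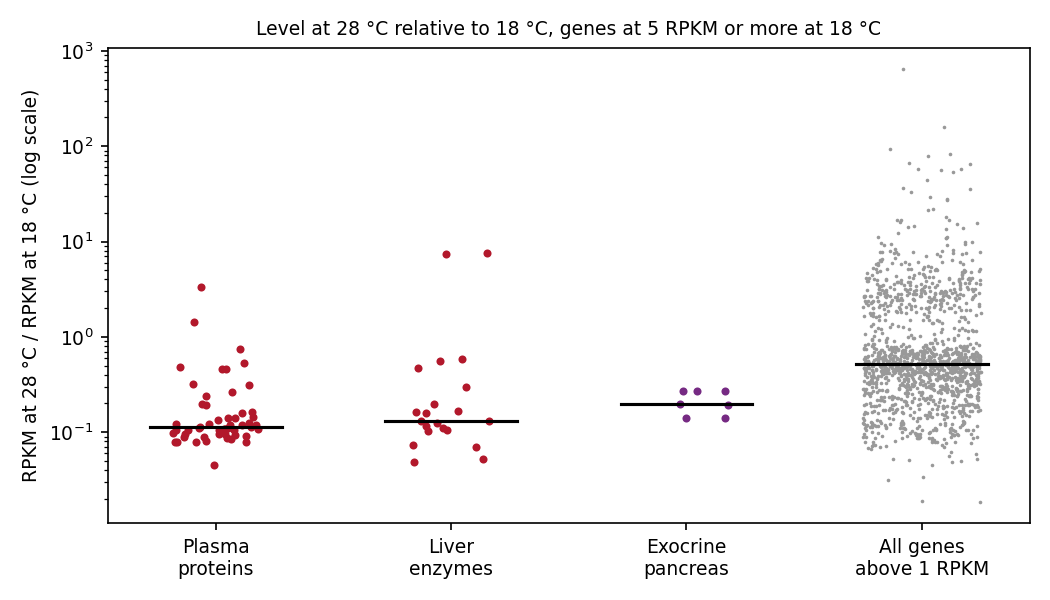
Each point is 1 gene at 5 RPKM or more at 18 °C, with its RPKM at 28 °C divided by its RPKM at 18 °C on a log y axis, and the bars are medians. The plasma protein, liver enzyme and exocrine pancreas genes have medians of 0.113, 0.130 and 0.199, with single plasma and enzyme genes above 1, and all genes together spread around 0.517.

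Many higher genes outside the lists had the same course over the 4 libraries. A gene was counted as having the profile of the plasma list when its level at 23 °C was within 2-fold of 12 °C and its excess at 28 °C, as a share of that at 18 °C, was between 0.0506 and 0.202, which is 0.5 to 2 times the plasma list's median share of 0.101. This is a rule for sorting and not a finding. It took 225 of all 4097 members. The rule does not ask for a higher level at 18 °C, so some lower genes, such as snx10b, also met it. Of the 314 higher genes it took 194, 69 of them listed and 125 unlisted. The unlisted ones summed to 4738 RPKM at 18 °C against 228 RPKM at 12 °C. Outside the liver and pancreas lists, the nearest genes with a symbol inside its lower bound were mt2 and pla1a, at shares of 0.0573 and 0.0619, and outside it igf1 and tktb, at 0.0455 and 0.0447. At the upper bound pth4 and tppp3 lay inside, at 0.197 and 0.183, and pnp5a and dnase1 outside, both at 0.219.

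Of the 125 unlisted genes 34 carry a symbol, and those picked out here, apart from mt2 and ucp1, were chosen after their values were seen. Others of the 34, such as ctsf, ccdc141, ybx2 and miox, are not described, and how many of the 34 are liver genes was not tested. Several of the 34 are liver-secreted in mammals. Among them, spp2 was at 55.8 RPKM at 18 °C against 0.267 RPKM at 12 °C. The gene igfals, whose product carries insulin-like growth factors in blood, was at 15.3 RPKM at 18 °C against 0.166 RPKM at 12 °C. Macrophage-stimulating protein (mst1) was at 9.58 RPKM at 18 °C against 0.0727 RPKM at 12 °C, and the selenium carrier selenop2 at 9.28 RPKM at 18 °C against 0.0960 RPKM at 12 °C. A coagulation factor VII relative, f7i, which the lists had missed, was at 5.86 RPKM at 18 °C against 0.0504 RPKM at 12 °C. The metal-binding metallothionein mt2 was the most abundant of those with a symbol, at 340 RPKM at 18 °C against 46.9 RPKM at 12 °C. The uncoupling protein gene ucp1, on the fat cell list but expressed in liver in some fishes, was at 25.02 RPKM at 18 °C against 0.122 RPKM at 12 °C.

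Outside both the lists and this profile, 100 genes were at least 2-fold higher, 50 of them with a symbol. Of the 100, 53 belonged to the cluster of the authors' deposited table that holds most plasma protein genes. In that cluster tm4sf5, an epithelial membrane protein, was at 6.76 RPKM at 18 °C against 0.186 RPKM at 12 °C. The growth factor gene igf1, which liver and muscle both make, was at 2.40 RPKM at 18 °C against 0.159 RPKM at 12 °C. The lipase inhibitor gene g0s2 was at 6.98 RPKM at 18 °C against 0.854 RPKM at 12 °C. Also in that cluster, from the 10 furthest with a symbol outside the lists and profile, were endou (an endoribonuclease) and dnase1 (a secreted nuclease). So were def6c (an exchange factor of small GTPases) and cideb (a lipid droplet protein of liver in mammals). The latter was listed at 0 at 12 °C and was at 2.65 RPKM at 18 °C. That cluster also held the muscle list genes mybpc2a and tnnt2b. They were at 6.15 and 11.6 RPKM at 18 °C, against 1.83 and 4.17 RPKM at 12 °C.

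The remaining 47 higher genes, 27 with a symbol, had log2 folds between 1.03 and 2.60. They summed to 858 RPKM at 18 °C against 217 RPKM at 12 °C, and to 951 and 12992 RPKM at 23 and 28 °C. Single genes weighed heavily in these sums. The actin gene acta1a alone was at 395 RPKM at 18 °C. At 28 °C hspa1b, hsp90aa1.1 and LOC109626154 were at 5326, 4188 and 2264 RPKM, and LOC109626154 was at 2.13 RPKM at 18 °C. Of the 47, 32 were at 1 RPKM or more at 12 °C, while 63 of the 89 higher genes of the liver and pancreas lists were below it. The 47 are what a sorting on the same 4 libraries left, so their levels and folds are a description only.

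The most abundant of those with a symbol was skeletal actin. This gene, acta1a, was at 395 RPKM at 18 °C against 66.9 RPKM at 12 °C (log2 fold 2.55), with 417 and 309 RPKM in the 23 and 28 °C libraries. Reads of actin genes may be shared between near-identical copies, so this value is uncertain. Chosen after their values were seen, 3 genes of muscle energy supply follow. The AMP-activated kinase subunit prkag3a, the form of glycolytic muscle in mammals, was at 13.5 RPKM at 18 °C against 4.06 RPKM at 12 °C, with 19.4 and 6.02 RPKM in the 23 and 28 °C libraries. The gene gatm, whose enzyme makes the precursor of creatine, was at 73.7 RPKM at 18 °C against 28.2 RPKM at 12 °C. The mitochondrial ATP-phosphate carrier slc25a25 was at 18.2 RPKM at 18 °C against 7.23 RPKM at 12 °C. Named by the rule, the triglyceride-forming enzyme dgat2 was at 4.99 RPKM at 18 °C against 1.15 RPKM at 12 °C, and ppp1r3g, which brings a phosphatase to glycogen, was at 4.57 RPKM at 18 °C against 0.381 RPKM at 12 °C. The purine phosphorylase gene pnp4b was at 6.77 RPKM at 18 °C against 0.847 RPKM at 12 °C.

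Several genes whose products work in the endoplasmic reticulum were also among the 27. The furthest of the 47 was rcn3, a calcium-binding protein of the endoplasmic reticulum, at 16.3 RPKM at 18 °C against 1.84 RPKM at 12 °C (log2 fold 2.60). The collagen chaperone serpinh1b was at 7.73 RPKM at 18 °C against 1.74 RPKM at 12 °C, with 36.0 and 169 RPKM in the 23 and 28 °C libraries. The chaperone hspa5, the main folding helper of that compartment, was at 11.8 RPKM at 18 °C against 4.45 RPKM at 12 °C, and calreticulin (calr) at 2.53 RPKM at 18 °C against 0.670 RPKM at 12 °C. Chosen after their values were seen, the prolyl isomerase genes fkbp9, fkbp11 and ppic, also of that compartment, were at 4.56, 3.33 and 3.68 RPKM at 18 °C, against 1.39, 1.02 and 1.199 RPKM at 12 °C. Also chosen so, the vitamin K genes vkorc1 and ggcx and the reticulum protein calu were at 6.73, 4.20 and 6.23 RPKM at 18 °C, against 2.22, 1.41 and 2.32 RPKM at 12 °C.

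Taken as a list, the endoplasmic reticulum genes differed little. Of 31 rows 3 were higher (hspa5, calr and pdia2, the last also a pancreas gene) and 0 lower, with a median log2 fold of 0.19. Of the 31 rows 27 met the minimum, as did 30 of the 37 heat shock rows, and over all members 7.66% were higher. In the heat shock list 3 of 37 rows were higher and 0 lower, with a median of 0.11. They were the cytosolic chaperones hspa1b, at 8.33 RPKM at 18 °C against 1.68 RPKM at 12 °C, and hsp90aa1.1, at 53.2 RPKM at 18 °C against 21.1 RPKM at 12 °C, besides serpinh1b. At 28 °C the same 2 genes stood at 5326 and 4188 RPKM. Reads of both may be shared with near-identical copies. The abundant small heat shock genes hspb6 and hspb1 were within 2-fold, at 432 and 59.7 RPKM at 18 °C, against 368 and 44.2 RPKM at 12 °C.

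**Figure D4:**
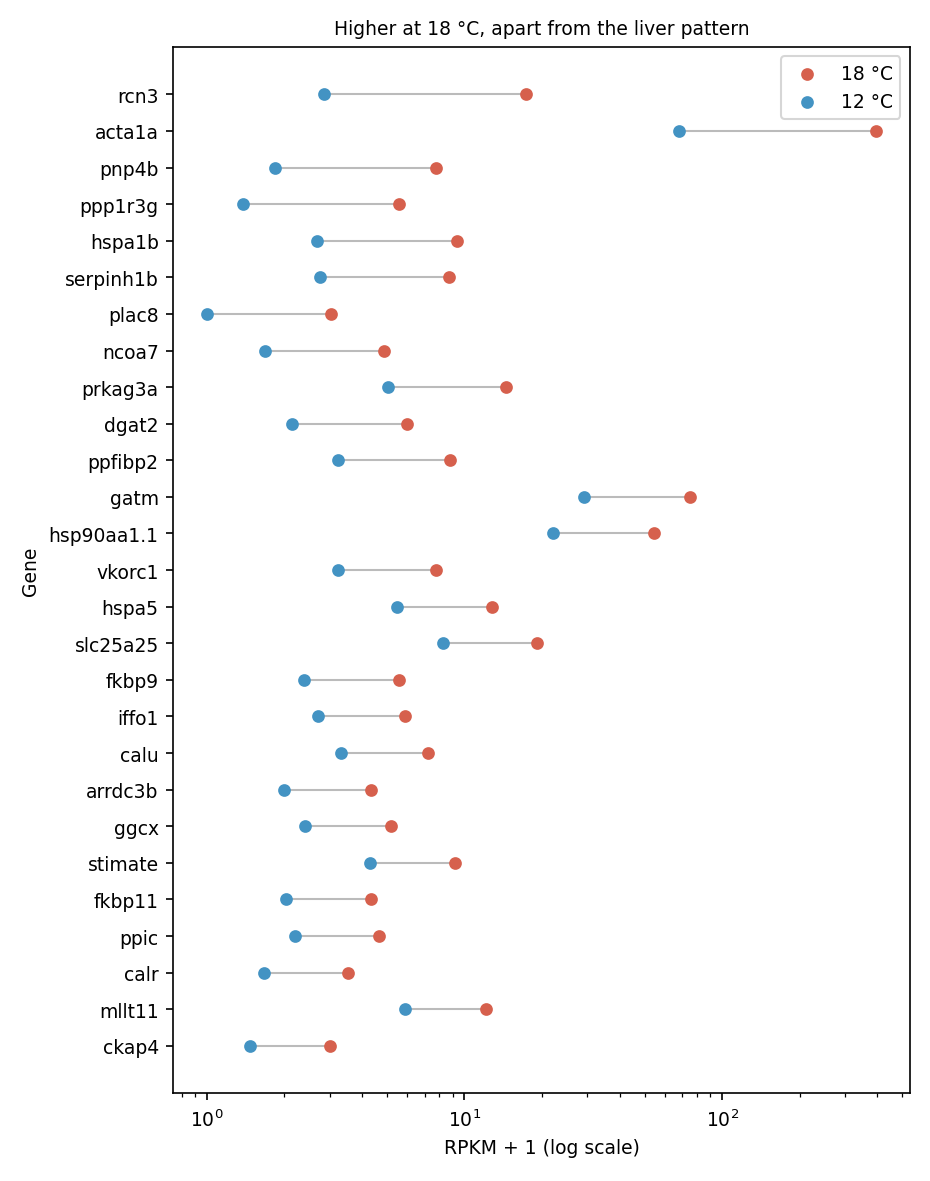
The 27 genes with a symbol that were higher at 18 °C and lay outside the liver and pancreas lists, their profile and the authors' cluster, with RPKM + 1 on a log x axis at 18 °C and at 12 °C. The longest gap is that of rcn3, acta1a is the most abundant, and plac8 was listed at 0 at 12 °C.

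On the lower side the genes furthest apart were a chemokine, described with the immune genes, and single genes of protein breakdown and amino acid handling. The muscle ubiquitin ligase fbxo32 (atrogin-1), a marker of muscle wasting in mammals, was at 16.2 RPKM at 18 °C against 103 RPKM at 12 °C (log2 fold -2.60), with 12.7 and 17.2 RPKM in the 23 and 28 °C libraries. The 12 °C library was the high one of the 4. Another ligase gene, fbxo30a, was at 2.43 RPKM at 18 °C against 10.3 RPKM at 12 °C (-1.72), and the mitochondrial ligase mul1 at 12.6 RPKM at 18 °C against 26.2 RPKM at 12 °C (-1.01). These were the 3 lower genes among 22 rows of the breakdown list, which had 0 higher genes and a median of -0.18. Of the 22 rows 17 met the minimum, and over all members 2.68% were lower. The proteasome activator psme4 was at 7.84 RPKM at 18 °C against 26.1 RPKM at 12 °C. Chosen after their values were seen, the proteasome subunit psmd6 was at 22.5 RPKM at 18 °C against 47.1 RPKM at 12 °C, and the autophagy gene atg9b at 17.4 RPKM at 18 °C against 37.5 RPKM at 12 °C.

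Glutamine synthetase (glula), which stores ammonia as glutamine, was at 20.3 RPKM at 18 °C against 72.1 RPKM at 12 °C (log2 fold -1.78). The leucine transporter slc7a5 was at 4.55 RPKM at 18 °C against 18.3 RPKM at 12 °C (-1.80). Mitochondrial arginase (arg2) was at 7.72 RPKM at 18 °C against 36.0 RPKM at 12 °C (-2.09), yet at 32.0 RPKM at 28 °C, near its 12 °C level. The growth-restraining sestrins sesn1 and sesn2 were at 25.1 and 1.49 RPKM at 18 °C, against 52.7 and 4.08 RPKM at 12 °C. Of the 38 rows of the amino acid transport and stress list, 4 were lower and 1, the aminotransferase got1 of the plasma profile, was higher, with a median of -0.0038. Of the 38 rows 27 met the minimum, and over all members 2.68% were lower and 7.66% higher.

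Targets of the stress hormone cortisol were on both sides. Of 25 glucocorticoid rows 19 met the minimum, and over all members 2.68% were lower and 7.66% higher. In this list 4 were lower (fbxo32, glula, sesn1 and cebpb) and 2 higher (tat and mt2), with a median of -0.28. Both higher genes lay in the liver lists or profile. The cortisol-receptor chaperone fkbp5 was at 27.8 RPKM at 18 °C against 47.2 RPKM at 12 °C, which is less than 2-fold.

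Immune genes with a symbol were few and mostly low, and 3 of them lay far apart between the libraries. The chemokine gene cxcl13, which attracts B cells in mammals, was at 0.218 RPKM at 18 °C against 28.2 RPKM at 12 °C (log2 fold -4.58), with 0.0558 and 1.69 RPKM in the 23 and 28 °C libraries. Both chains of the B cell receptor's signalling pair were lower too. The chain cd79b was at 0.272 RPKM at 18 °C against 3.71 RPKM at 12 °C (-1.89), and cd79a at 0.199 RPKM at 18 °C against 2.28 RPKM at 12 °C (-1.45). At 28 °C they stood at 6.05 and 6.21 RPKM. Among the 19 leukocyte rows 2 were lower and 0 higher, with a median of -0.34 and a summed level of 14.6 RPKM at 18 °C against 27.7 RPKM at 12 °C. Of the 19 rows 8 met the minimum, and over all members 2.68% were lower. The B cell factor pax5 was below the minimum, at 0.0261 RPKM at 18 °C against 0.315 RPKM at 12 °C, while the T cell genes cd3e and lck were at 0.325 and 0.362 RPKM at 18 °C, against 0.245 and 0.346 RPKM at 12 °C. The share that leukocyte number had in these values was not tested. The chemokine gene was the 1 lower gene of 14 rows of interferon and chemokine genes, 7 of which met the minimum.

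Regulators of muscle and of rhythm were lower in single genes. The muscle cofactor vgll2b was at 5.56 RPKM at 18 °C against 16.1 RPKM at 12 °C, the 1 lower gene of 18 muscle transcription rows. The clock repressor ciart was at 6.82 RPKM at 18 °C against 18.1 RPKM at 12 °C, the 1 lower gene of 20 clock rows. Of the 18 and 20 rows 11 and 16 met the minimum, and over all members 2.68% were lower. A splicing regulator, mbnl1, was at 12.9 RPKM at 18 °C against 29.7 RPKM at 12 °C. A separate row with that symbol, known by a numbered ID, was within 2-fold at 43.0 RPKM at 18 °C against 58.6 RPKM at 12 °C. The collagenase mmp13a was at 0.428 RPKM at 18 °C against 3.55 RPKM at 12 °C (log2 fold -1.67), and mob3a, of a family of kinase activators, was at 2.78 RPKM at 18 °C against 11.8 RPKM at 12 °C (-1.76) but at 80.8 RPKM at 28 °C.

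Other lists held few genes past 2-fold. Contractile genes had a median log2 fold of 0.25, with acta1a and mybpc2a higher and mylpf listed at 0, and slow and heart muscle genes a median of 0.34 over 12 rows, with the troponin gene tnnt2b higher at 11.6 RPKM at 18 °C against 4.17 RPKM at 12 °C. The fatty acid list (28 rows, median 0.08) had thrsp and cyp4v2a as higher, both of them liver-list genes. The metal and xenobiotic list (12 rows, 0.28) had mt2 and cyp1a as higher. Extracellular matrix (29 rows, 0.06) had serpinh1b as higher and mmp13a as lower, and growth and insulin genes (27 rows, -0.15) had igf1 as higher and sesn1 as lower. The fat cell list (7 rows, 0.72) had ucp1 and dgat2 as higher. No gene was past 2-fold in either direction among immediate early genes (38 rows, 0.16), oxidative phosphorylation (9 rows, 0.08), cholesterol synthesis (20 rows, -0.06), ribosome and translation (11 rows, -0.35) or cell cycle (25 rows, 0.03). In the splicing and cold-response list (18 rows, -0.24), mbnl1 alone was lower. Over all rows of the table the median was 0.00, and over all members 7.66% were higher and 2.68% lower.

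Few markers of further tissues met the minimum. The 11 intestine rows summed to 2.66 RPKM at 18 °C against 0.657 RPKM at 12 °C, with none meeting the minimum. The 4 kidney rows summed to 0.259 RPKM at 18 °C against 0.0440 RPKM at 12 °C. Red cell genes other than ank1, an ankyrin also used by muscle, summed to 2.70 RPKM at 18 °C against 2.03 RPKM at 12 °C over the other 9 rows. Islet, skin and nerve lists (8, 8 and 15 rows) had no gene past 2-fold and summed to 14.9, 9.76 and 54.6 RPKM at 18 °C and to 17.7, 11.02 and 54.0 RPKM at 12 °C.

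Near the thresholds the calls are a matter of small steps. As elsewhere, 2-fold is counted with 1 RPKM added to both values, so the plain ratios of low genes are larger. Just above 2-fold lay fah, at 2.42 RPKM at 18 °C against 0.698 RPKM at 12 °C, and rrbp1, at 2.74 RPKM at 18 °C against 0.843 RPKM at 12 °C. Just short of it lay pygl, at 5.09 RPKM at 18 °C against 2.05 RPKM at 12 °C, and lpcat3, at 8.86 RPKM at 18 °C against 3.94 RPKM at 12 °C. On the lower side ccdc71 and mul1 lay just inside and rhoq and ube3a just outside. At the expression minimum npas2 and tacr1a lay just inside and cisd2 and shq1 just outside.

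In the authors' deposited table, whose folds use no added 1 RPKM, 410 of the 4097 genes were higher at 18 °C by 2-fold or more and 400 lower by as much. All 314 higher and 110 lower genes were among them. The table holds only genes that differed from 12 °C by 2-fold or more in 1 or more of the authors' comparisons, and 3287 of the 4097 genes are in it through 23 or 28 °C alone.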

How the data were processed

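RNA of muscle at 18 and 12 °C was sequenced on a BGISEQ-500. The authors deposited 1 table of RPKM values per gene for 4 muscle libraries, per the file headers, and the submitters' processing notes name TopHat2 and Cufflinks without versions. Genome build and annotation: not given in the sources used here. How Cufflinks shared reads between near-identical copies is not stated, so genes with such copies are uncertain. The authors also deposited a comparison column per warmer library, headed log2 but holding natural log values: 11635, 11641 and 11633 of 11646 rows match the natural log ratio of the RPKM values, shifted by 1 constant per column, to within 0.00001, with values under 0.01 RPKM raised to 0.01. All 11646 rows are at least 2-fold apart in 1 or more of these columns, so the table is a selection. The other 20 of the 24 samples were not analysed here.

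Folds were computed with a pseudocount of 1 RPKM in Python 3.11.15 with pandas 2.3.3 and numpy 2.4.6, for genes with a pair mean of at least 1 RPKM, and drawn with matplotlib 3.10.9. Read steps of low genes gave a depth at 18 °C of 1.004 relative to 12 °C. In 1723 of 1928 low rows every value was a whole number of reads (tolerance 0.03 reads), and 1 read was worth a median of 0.0200 RPKM in 3171 rows. The absolute depth is unknown. Symbols came from the table or, for 2791 numbered IDs, from RefSeq genes (assembly ASM2471397v2, names only); 62 symbols are carried by more than 1 row. Genes were matched to 34 gene lists by symbol with paralog suffixes, after which false matches were removed by hand. The lists are held only in part, for example 29 rows of 66 RefSeq matches for contractile genes. The members and lists were chosen with earlier results of these data known.

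Genes were named by rule: the 10 furthest with a symbol in each direction, the same without the liver and pancreas lists and the plasma profile, the genes past 2-fold of each list (4 per direction for lists with more than 8), and the genes beside each threshold. All other genes named, further list members given as examples of a role included, were chosen after their values were seen. A gene that the rule names, and the list that turns on it, are not reported here. No test was possible with 1 library a side. The calling step was checked on simulated data with known folds. The alternatives were a pseudocount of 0.1, other scalings, other minimums, a 3-fold line and leaving out the authors' cluster.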

Additional observations from a re-analysis of the deposited data

How the results depend on the processing

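No paired analysis was possible because each temperature is 1 library, and no replicate could be left out. Scaling by median ratios, the authors' constant or no minimum left every count within 1.5 times. With a pair mean of at least 5 RPKM, 152 genes were higher and 72 lower, 99 and 69 without the liver and pancreas lists, and 36 were higher outside the profile too. With a pseudocount of 0.1 RPKM, 264 were lower (261 without the lists) and 209 higher outside the profile. At 3-fold, 25 were lower, with or without the lists, and 41 higher outside the profile. Leaving out the authors' cluster with the lists left 50 higher genes, and leaving it out with the lists and the profile, chosen after seeing the data, left 47. The median of the plasma list was 4.52 at the 5 RPKM minimum and 5.34 at a pseudocount of 0.1, and that of the pancreas list 3.66 and 3.53. That of the enzyme list was 0.39 at the 5 RPKM minimum and 2.03 at a pseudocount of 0.1. The medians at 5 RPKM cover only the rows that met it, while the main medians, 0.73 for the enzymes, cover all rows. Over the enzyme rows that met the main minimum of 1 RPKM the median was 1.65. Of the folds of the furthest genes named by rule, 14 moved with a pseudocount of 0.1 and 16 stayed similar. For example, cideb went from 1.87 to 4.78, and hpxa from 6.33 to 7.31, above apoa4 at 6.77. The order of the named genes thus depends on the pseudocount. The pseudocount sets how far near-absent genes stand apart, and other causes were not tested.

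The share of higher genes among those past 2-fold was 74.1% with unscaled RPKM values and a pseudocount of 1, and 74.2% after median ratio scaling. It was 67.7% with the authors' constant, 61.5% with a pseudocount of 0.1 and 90.3% at 3-fold. The authors' deposited folds, which use no added 1 RPKM, put 410 members higher and 400 lower, so the sides were nearly equal there. Centring on the members' median fold of -0.11, added after seeing the data, gave 349 higher and 81 lower genes (81.2%), and all 314 higher genes remained. Without a depth in counts, values below about 1 RPKM carry no interval here.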

Other observations

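Further genes with a symbol on the lower side were not in any list, and the examples here were chosen after their values were seen. The cell cycle regulator rgcc was at 7.42 RPKM at 18 °C against 23.0 RPKM at 12 °C, with 10.3 and 61.6 RPKM in the 23 and 28 °C libraries. The chromatin repressor gene cbx7a was at 2.53 RPKM at 18 °C against 8.71 RPKM at 12 °C, with 3.03 and 81.4 RPKM in the 23 and 28 °C libraries. Both were thus lowest at 18 °C among the 4 libraries and highest at 28 °C. The mitochondrial serine enzyme shmt2 was at 10.97 RPKM at 18 °C against 23.6 RPKM at 12 °C. The muscle lamin-interacting gene mlip was at 6.22 RPKM at 18 °C against 18.3 RPKM at 12 °C. The metalloreductase steap4 was at 8.62 RPKM at 18 °C against 19.5 RPKM at 12 °C.

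Genes without a symbol made up 141 of the 314 higher and 58 of the 110 lower genes. The most abundant higher one, LOC109638865, was at 608 RPKM at 18 °C against 7.05 RPKM at 12 °C, with 7.14 and 53.4 RPKM in the 23 and 28 °C libraries. Besides mylpf, 4 lower genes were listed at 0 at 18 °C. Of these ntrk2a, a neurotrophin receptor gene, was at 2.65 RPKM at 12 °C, with 2.81 and 2.62 RPKM in the 23 and 28 °C libraries.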
